A study of Mus musculus with 62 samples.

Results

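The genes described here are 39 mouse genes of the type I interferon response, taken as a fixed list by their Entrez identifiers and followed through 3 count tables of liver, prefrontal cortex and striatum. All 39 were found, among 18821 genes present in any of the tables. The liver table held 39 of them and all 39 passed the filter on low counts. The prefrontal cortex table held 38, of which 30 were tested, and the striatum table held 39, of which 32 were tested. The genes were selected on earlier results of these same data, among them the higher levels of many of them in liver at the top dose against vehicle. The dose comparisons below are therefore descriptions of the chosen genes, and their counts are read beside the share of all genes that passed the same rule. The promoter sequences were not read for that choice, but a list of known interferon response genes is not independent of its promoters. The comparison of vehicle liver with vehicle brain is another contrast, but its vehicle liver libraries are those that entered the choice.

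The samples came from female C57BL/6 mice that received the MARBLES mixture, a mixture of polychlorinated biphenyls (PCBs), by mouth. The groups were vehicle (0 mg/kg), 0.1 mg/kg, 1 mg/kg and 6 mg/kg, with 4, 4, 6 and 6 libraries in liver and 4, 5, 6 and 6 libraries in prefrontal cortex and in striatum. The labels give no age, no duration of dosing and no time of day at collection, and they describe RNA taken from tissue punches. The sample number in a label is used here to name a library, and the labels do not say that each library is a separate mouse, so the p-values measure the spread between these libraries.

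Type I interferons are secreted cytokines that bind the receptor formed by IFNAR1 and IFNAR2. The receptor's kinases JAK1 and TYK2 phosphorylate STAT2, which joins IRF9 in a complex called ISGF3, and this complex binds a DNA element called the interferon-stimulated response element (ISRE) in front of target genes. The products include sensors of foreign RNA and DNA, enzymes that block viral RNA and protein synthesis, the ubiquitin-like protein ISG15, and the transcription factor IRF7, which feeds back on interferon production. In liver both hepatocytes and Kupffer cells, the resident macrophages, can express such genes, and in bulk tissue fewer cells of a type and less RNA per cell cannot be told apart.

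Library totals ran from 7.38 to 10.2 M counts in liver, from 8.72 to 12.1 M in prefrontal cortex and from 8.28 to 12.02 M in striatum (M, 1000000). Marker genes matched the tissue labels: hepatocyte markers (Alb, Apoa1, Ttr and others) summed to between 88692 and 182255 counts per 1000000 (CPM) in liver, and Clec4f, Vsig4, Marco and Cd5l, which mark Kupffer cells, had no row in either brain table, where the smallest row total is 10 counts. The hepatocyte set reached 35.1 CPM in prefrontal cortex and 4103 CPM in striatum, where Alb, Serpina1a and Fabp1 had no row. Ttr is also in the list of choroid plexus markers. Neuron markers reached 51.8 CPM in the highest liver library. The 39 members took 0.106 to 0.121% of all counts in vehicle liver libraries and 0.144 to 0.218% at 6 mg/kg. Levels below are CPM after TMM scaling (edgeR's trimmed-mean library factors) within a tissue, a log2 fold change is 6 mg/kg or another dose minus vehicle, ± is a standard deviation after a level and a standard error (SE) after a log2 fold change, and a gene is called at an adjusted p under 0.05 in edgeR's quasi-likelihood test with Benjamini-Hochberg adjustment over all genes tested in that tissue.

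The sequence that ISGF3 recognises could be looked for directly, because RefSeq promoter windows (GRCm38.p6, 250 bases before to 50 bases after an annotated start) were at hand for 29 of the 39 members. The ISRE core was searched as GAAANNGAAA and, for the other strand, TTTCNNTTTC, with overlapping matches allowed. It occurred in 16 of the 29 members (55.2%) and in 1079 of 27025 genes with a window (3.99%). As the list was made of interferon response genes, a share above that of all genes is no independent support. The near-copies Apol9a and Apol9b, and Ifit3 and Ifit3b, are counted as separate genes. Among the members called higher in liver at 6 mg/kg, 7 of the 10 with a window held it (70%), and 9 of the other 19 did (47.4%). The gamma-activated sequence (GAS), an element of interferon gamma targets, searched as TTCNNNGAA, occurred in 5 of the 29 members (17.2%) and in 9.55% of all genes with a window. A match is a description of the letters and not a bound site. The stretches printed here, 5′ to 3′ on the gene's own strand and ending at the last base before the annotated gene, show a promoter with 3 overlapping matches (Isg15), promoters with 2 (Ifit1 and Apol9a), one of a gene that was not higher at 6 mg/kg but holds the same letters (Bst2), and one of a called gene with none (Irf9). Capitals mark the ISRE core matches.
Isg15, chr4:156200819-156200978, minus strand: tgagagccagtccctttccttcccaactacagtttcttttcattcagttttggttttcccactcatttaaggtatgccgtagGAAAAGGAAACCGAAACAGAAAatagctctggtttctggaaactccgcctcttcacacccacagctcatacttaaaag
Ifit1, chr19:34640729-34640888, plus strand: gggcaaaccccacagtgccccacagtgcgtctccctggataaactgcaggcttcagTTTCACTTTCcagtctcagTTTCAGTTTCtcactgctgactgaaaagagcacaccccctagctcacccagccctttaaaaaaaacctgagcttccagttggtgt
Apol9a, chr15:77411081-77411240, minus strand: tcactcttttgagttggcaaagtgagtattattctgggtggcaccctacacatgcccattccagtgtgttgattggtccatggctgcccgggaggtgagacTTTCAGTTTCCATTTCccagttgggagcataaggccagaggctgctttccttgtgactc
Bst2, chr8:71537473-71537632, minus strand: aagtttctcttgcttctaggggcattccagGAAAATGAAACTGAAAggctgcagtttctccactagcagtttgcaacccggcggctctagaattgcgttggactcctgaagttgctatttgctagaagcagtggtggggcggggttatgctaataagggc
Irf9, chr14:55603825-55603984, plus strand: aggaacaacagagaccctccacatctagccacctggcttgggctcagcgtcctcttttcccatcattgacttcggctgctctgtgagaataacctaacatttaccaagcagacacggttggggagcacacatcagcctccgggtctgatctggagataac

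In the windows the matches of Isg15 began 78, 72 and 66 bases before the start, those of Bst2 130 and 124 bases before it, and the single match of Stat2 222 bases before it. Irf7, Xaf1 and Irf9 were the members called in liver whose windows held no match, and no window was at hand for Rtp4, Oas2, Usp18, Ifi27, Dhx58, Mx1, Parp14, Mx2, Zbp1 and Parp9. Of the printed genes, Ifit1 and its relatives Ifit3 and Ifit3b lie in a cluster on chromosome 19, and the last pair hold 2 matches each, which do not overlap, and the same 30 bases around the one nearer the start, printed here. Another short stretch, of Oas1a, holds 2 overlapping matches.
Ifit3, chr19:34583397-34583426, plus strand: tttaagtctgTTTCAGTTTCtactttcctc
Ifit3b, chr19:34607793-34607822, plus strand: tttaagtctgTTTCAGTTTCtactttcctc
Oas1a, chr5:120907520-120907549, minus strand: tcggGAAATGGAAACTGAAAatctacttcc

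In liver at 6 mg/kg 16 of the 39 genes were higher than in vehicle and none was lower, beside 2.8% of all 12968 genes called in either direction and 1.8% called higher. The 16 were the transcription factors Irf7 and Irf9, the antiviral genes Ifit1, Ifit3, Mx1, Mx2 and Oas1a, the ISG15 system genes Isg15 and Usp18, the nucleic acid sensors Dhx58 and Zbp1, and Parp14, Trim12a, Apol9a, Apol9b and Xaf1. The log2 fold change was above 0 in 37 of the 39, beside 51.9% of all genes, with a median of 0.83, beside a median of 0.02 over all genes. At an unadjusted p under 0.05, 27 members were higher and 1 was lower, beside 24.2% of all genes. Every 6 mg/kg library lay above every vehicle library in 18 members, beside 3.26% of all genes.

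The number called rested on single libraries and on the setting, as did the number over all genes. Without vehicle library 4 no member was called, beside 0.0228% of all genes, with 23 members at an unadjusted p under 0.05 (17.2% of all genes) and a median log2 fold change of 0.78. Without vehicle library 3 only Apol9a and Irf7 were called, beside 0.0835% of all genes. Without vehicle library 7 or 8 the count was 9 or 10 (0.716% and 1.03% of all genes), and without 6 mg/kg library 52 or 58 it was 10 or 9 (0.690% and 0.463%). It rose to 19 and 21 without 6 mg/kg library 55 or 56, where 7.91% and 10.1% of all genes were called. DESeq2 called 21 members, beside 9.26% of all genes, and an edgeR fit of the 6 mg/kg and vehicle libraries alone called 3 (Ifit1, Isg15 and Xaf1), beside 0.105%. The plot of calls by setting shows the same spread.

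**Figure D1:**
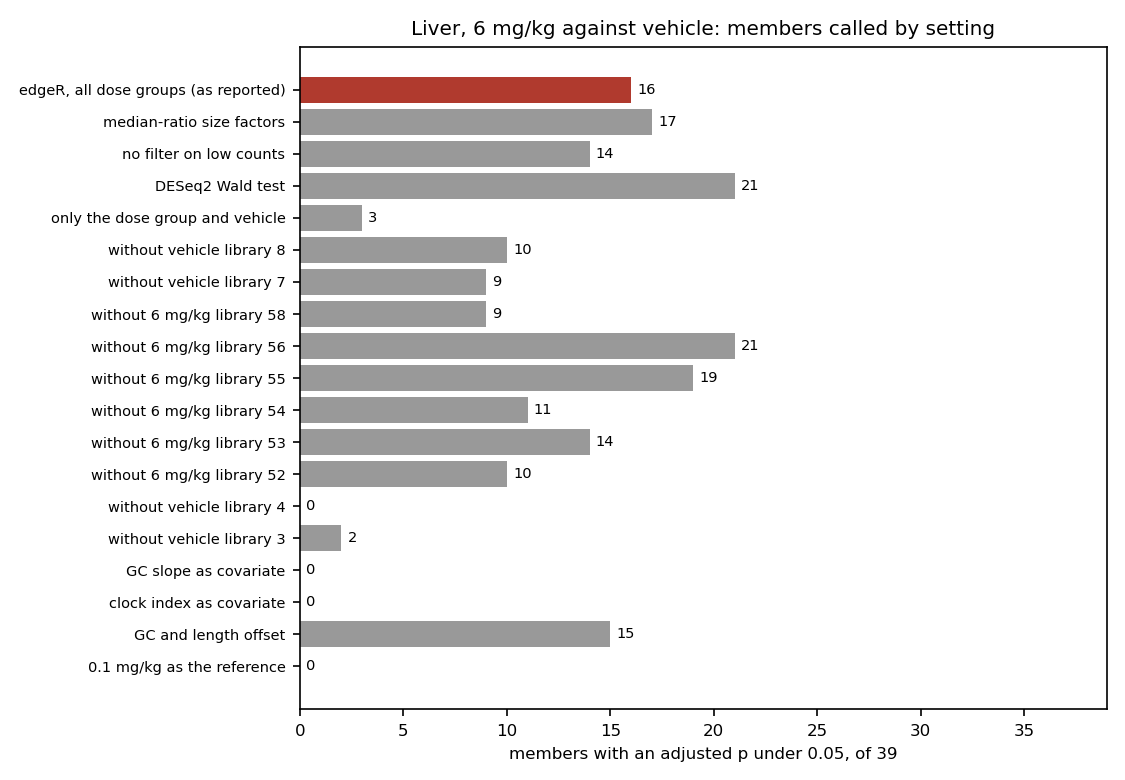
Number of the 39 members called in liver at 6 mg/kg against vehicle under each setting, with 1 bar per setting and the horizontal axis from 0 to 39 members. The count was 16 as reported, lay between 0 and 21 when single libraries were left out, and was 0 with the GC slope or the clock index as a covariate.

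Other measures moved with the liver dose groups. The Spearman correlation, across genes, of GC content with a library's deviation from the tissue mean (named its GC slope) was -0.28 to -0.16 in vehicle, -0.15 to -0.14 at 0.1 mg/kg, -0.26 to 0.32 at 1 mg/kg and -0.02 to 0.24 at 6 mg/kg. The difference of log2 Dbp and log2 Arntl, a pair of clock genes with opposite phases, was 2.04 to 5.45 in vehicle, 6.17 to 7.98 at 0.1 mg/kg, 5.76 to 8.60 at 1 mg/kg and 6.58 to 8.48 at 6 mg/kg, so it stood above vehicle at all 3 doses. The vehicle group was split, with 2.04 and 2.49 in libraries 3 and 4 and 5.19 and 5.45 in libraries 7 and 8. Of the single vehicle libraries left out, 3 and 4 gave the smallest counts of called members. With the GC slope as a covariate no member was called, beside 0.00771% of all genes, 23 were at an unadjusted p under 0.05, beside 10.2% of all genes, and the median log2 fold change was 0.82. With the clock index no member was called, beside 0% of all genes, 13 were at an unadjusted p under 0.05, beside 3.63% of all genes, and the median was 0.71. All 8 Kupffer cell and macrophage markers were detected and summed to 129 to 213 CPM in vehicle, 223 to 318 CPM at 0.1 mg/kg, 187 to 362 CPM at 1 mg/kg and 174 to 365 CPM at 6 mg/kg. The 6 cholangiocyte and stellate cell markers went from 184 to 287 CPM in vehicle to 76.2 to 251 CPM at 6 mg/kg, with medians of 229 and 129 CPM. The 7 neutrophil and monocyte markers summed to 3.10 to 5.24 CPM in vehicle and 2.81 to 13.1 CPM at 6 mg/kg, with no row for Ly6g, and the 5 B and plasma cell markers to 3.54 to 6.39 CPM and 5.10 to 17.6 CPM. The part of these measures in the higher levels was not tested beyond the covariate fits.

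Of the pathway's own transcription factor genes in the list, Irf7 and Irf9 were called and Stat2 was not. Irf7, the factor that amplifies interferon production, stood at 56.3, 57.5, 46.1 and 51.5 CPM in vehicle libraries 3, 4, 7 and 8, at 65.6, 68.5, 54.3 and 48.1 CPM at 0.1 mg/kg, between 52.3 and 85.8 CPM (median 68.9) at 1 mg/kg and between 88.9 and 166 CPM (median 105.5) at 6 mg/kg. All 6 libraries at 6 mg/kg were above every vehicle library, while the lower doses overlapped vehicle. Irf7 rose by 1.09 ± 0.19 on the log2 scale (adjusted p = 0.00932). Irf9, the DNA-binding partner of STAT2, rose from 29.5 ± 2.88 CPM to 49.6 ± 7.04 CPM, a log2 fold change of 0.75 ± 0.14 (adjusted p = 0.0134). Stat2, which supplies the activation domain of ISGF3, was at 79.5, 63.7, 103 and 97.7 CPM in vehicle and between 70.7 and 245 CPM (median 143) at 6 mg/kg. Its 6 mg/kg libraries split, with 55 and 56 inside the vehicle range and the other 4 above it, and its log2 fold change of 0.78 ± 0.31 did not pass (adjusted p = 0.137). Its other values were 130, 150, 72.2 and 99.3 CPM at 0.1 mg/kg and 57.6 to 125 CPM at 1 mg/kg.

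The largest changes were among antiviral effectors. Ifit1, whose protein binds viral RNA that lacks the host cap methylation, was at 6.97, 5.07, 7.07 and 11.2 CPM in vehicle, at 12.4, 21.9, 9.19 and 10.1 CPM at 0.1 mg/kg, between 7.91 and 28.96 CPM (median 11.4) at 1 mg/kg and between 16.4 and 58.2 CPM (median 30.8) at 6 mg/kg. The 6 mg/kg libraries did not overlap vehicle, and a pair of 1 mg/kg libraries, 45 and 46, reached the 6 mg/kg range. Ifit1 rose by 2.15 ± 0.42 on the log2 scale (adjusted p = 0.0134). Of the other IFIT genes Ifit3 rose from 11.7 ± 1.10 to 26.5 ± 7.16 CPM (log2 fold change 1.18 ± 0.24, adjusted p = 0.0176), whereas Ifit3b (0.75, adjusted p = 0.164) and Ifit2 (0.49, adjusted p = 0.410) did not pass. Of the 50-base windows of the longest Ifit3 transcript 51.2% also occur in Ifit3b, so the division of reads between these neighbours is uncertain.

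Mx1 and Mx2 encode dynamin-like GTPases that trap viral components, and Mx1 is known to carry a disruptive deletion in C57BL/6 mice. Mx1 was low, at 0.484, 1.34, 1.27 and 0.715 CPM in vehicle (5 to 14 counts), at 2.34, 3.47, 0.293 and 1.01 CPM at 0.1 mg/kg, between 0.428 and 2.68 CPM at 1 mg/kg and between 1.94 and 7.97 CPM (median 4.53) at 6 mg/kg. All 6 libraries of the top dose were above vehicle, and 6 mg/kg libraries 55 and 56 fell within the range of the lower doses. Its log2 fold change of 2.26 ± 0.60 (adjusted p = 0.0440) had the largest size and also the largest SE of the 16 called members. Mx2 was at 2.03, 2.97, 3.27 and 4.41 CPM in vehicle, at 5.46, 5.46, 2.54 and 4.43 CPM at 0.1 mg/kg, between 2.91 and 6.75 CPM (median 5.34) at 1 mg/kg and between 3.98 and 15.1 CPM (median 8.87) at 6 mg/kg. Only library 56 of the top dose overlapped vehicle, and Mx2 rose by 1.60 ± 0.36 on the log2 scale (adjusted p = 0.0253). Rsad2 encodes viperin, a radical SAM enzyme, and its neighbour Cmpk2 makes the nucleotide that viperin modifies; their log2 fold changes of 0.61 (adjusted p = 0.322) and 0.53 (adjusted p = 0.293) did not pass.

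In the oligoadenylate synthetase family, of which 5 genes are members here, the active enzymes make the second messenger that activates RNase L. Oas2 was at 2.42, 2.97, 5.07 and 4.65 CPM in vehicle, at 7.68, 16.9, 3.81 and 6.04 CPM at 0.1 mg/kg, between 2.57 and 6.85 CPM (median 4.14) at 1 mg/kg and between 2.62 and 32.7 CPM (median 11.8) at 6 mg/kg. Libraries 55 and 56 lay in the vehicle range and library 58 was the highest, and the log2 fold change of 1.90 ± 0.58 did not pass (adjusted p = 0.0726). It passed without library 55 or 56 (adjusted p = 0.0299 and 0.0217) and in DESeq2 (adjusted p = 0.0109). Oas1a was the 1 called gene of the 5, at 5.01 ± 0.757 CPM in vehicle and 9.02 ± 2.65 CPM at 6 mg/kg (log2 fold change 0.85 ± 0.21, adjusted p = 0.0363); 56.9% of its 50-base windows occur in Oas1g, so its reads may be shared with that copy. Oasl2 (1.01, adjusted p = 0.0505), Oas3 (0.97, adjusted p = 0.238) and Oasl1 (0.94, adjusted p = 0.166) had log2 fold changes near that of Oas1a and did not pass.

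**Figure D2:**
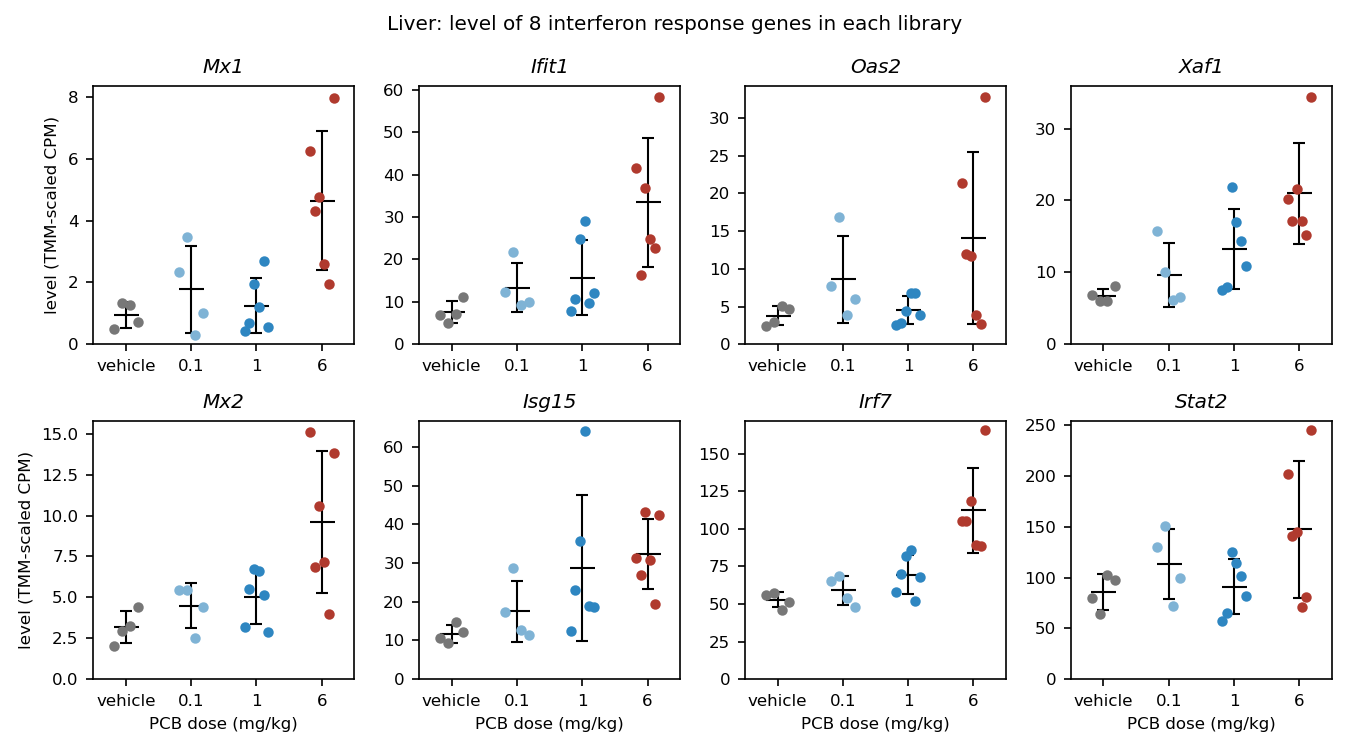
Level of 8 members in each liver library, in TMM-scaled CPM on an axis from 0, by PCB dose in mg/kg, with 1 point per library and black bars for the group mean ± SD. Irf7, Ifit1, Mx1, Xaf1 and Isg15 had every 6 mg/kg library above every vehicle library, while Stat2, Oas2 and Mx2 had 6 mg/kg libraries inside or at the vehicle range.

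Isg15 encodes the ubiquitin-like modifier that is conjugated to newly made proteins, Herc6 its mouse ligase and Usp18 the protease that removes it and restrains the receptor. Isg15 was at 10.7, 9.37, 14.8 and 12.3 CPM in vehicle, at 17.4, 28.7, 12.6 and 11.5 CPM at 0.1 mg/kg, between 12.5 and 64.1 CPM (median 20.9) at 1 mg/kg and between 19.5 and 43.1 CPM (median 31.0) at 6 mg/kg. The highest library of the tissue was 46, at 1 mg/kg, and every 6 mg/kg library was above vehicle. Isg15 rose by 1.46 ± 0.38 on the log2 scale (adjusted p = 0.0437), Usp18 rose by 0.84 ± 0.20 (adjusted p = 0.0333), and Herc6 had a log2 fold change of 0.56 ± 0.20 that did not pass (adjusted p = 0.0984).

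Of the 5 nucleic acid sensors, Dhx58, which encodes the RNA helicase LGP2, rose from 9.03 ± 1.58 to 18.6 ± 3.16 CPM (log2 fold change 1.04 ± 0.20, adjusted p = 0.0134). Zbp1, a sensor of Z-form nucleic acids that can start necroptosis, rose from 6.45 ± 1.11 to 15.2 ± 4.71 CPM (1.23 ± 0.27, adjusted p = 0.0233). The helicases Ifih1 (MDA5) and Ddx58 (RIG-I) had log2 fold changes of 0.48 and 0.29, and Eif2ak2, the kinase PKR that stops translation, 0.55. None of these 3 passed (adjusted p = 0.175, 0.283 and 0.202).

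Parp14 rose by 0.83 ± 0.21 on the log2 scale, from 18.9 ± 3.32 to 33.6 ± 7.20 CPM (adjusted p = 0.0419). The other genes of its group, the mono-ADP-ribosyltransferases Parp9 and Parp12 and the ubiquitin ligase Dtx3l that pairs with PARP9, had log2 fold changes of 0.15, 0.15 and 0.14 and did not pass (adjusted p from 0.579 to 0.719). Parp14, Dtx3l and Parp9 lie near each other on chromosome 16. Trim12a, of the TRIM5-related family, rose from 7.82 ± 1.33 to 18.8 ± 5.52 CPM (1.26 ± 0.23, adjusted p = 0.0130), and Trim30a had 0.78 (adjusted p = 0.0789).

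Apol9a and Apol9b, apolipoprotein L genes of the mouse, rose from 48.7 ± 10.9 to 113 ± 28.3 CPM and from 109 ± 27.6 to 235 ± 64.4 CPM, with log2 fold changes of 1.21 ± 0.21 (adjusted p = 0.00932) and 1.11 ± 0.22 (adjusted p = 0.0139). Their promoter windows were identical in 278 of 278 bases compared. In the transcripts 57.5% of the 50-base windows of Apol9a occur in Apol9b, so the pair may share reads and the division between them is uncertain. Xaf1, which encodes a partner of the apoptosis inhibitor XIAP, was at 6.78, 6.02, 6.02 and 8.10 CPM in vehicle, at 15.8, 10.1, 6.16 and 6.64 CPM at 0.1 mg/kg, between 7.48 and 21.8 CPM (median 12.6) at 1 mg/kg and between 15.2 and 34.4 CPM at 6 mg/kg. The top dose was above vehicle in every library and Xaf1 rose by 1.64 ± 0.32 on the log2 scale (adjusted p = 0.0134).

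The remaining members did not follow Xaf1. Ifi35 (0.85, adjusted p = 0.0537), an interferon-induced leucine zipper protein, and Rtp4 (0.68, adjusted p = 0.0628) came close to the threshold, and Ifi44 (0.27) and Lgals3bp (0.06), a secreted glycoprotein, did not. Bst2, the membrane tether tetherin, was at 269 ± 6.86 CPM in vehicle and 248 ± 60.7 CPM at 6 mg/kg (log2 fold change -0.12 ± 0.21, adjusted p = 0.765). Ifi27, a mitochondrial protein gene, was at 135 ± 23.8 CPM in vehicle and 95.0 ± 22.3 CPM at 6 mg/kg (-0.50 ± 0.21, unadjusted p = 0.0270, adjusted p = 0.154). Bst2 and Ifi27 were the only members with a log2 fold change below 0.

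The lower doses, which share the 4 vehicle libraries with the top dose, gave smaller median log2 fold changes, though not for every gene: Ifit2 averaged 4.55 CPM at 0.1 mg/kg and 4.08 CPM at 6 mg/kg, and Ifit3b 5.27 CPM at 1 mg/kg and 5.10 CPM at 6 mg/kg. At 1 mg/kg edgeR called 0 members, beside 0% of all genes, and DESeq2 called 0 members too. At an unadjusted p under 0.05, 13 members were higher, beside 8.44% of all genes, with a median log2 fold change of 0.33 beside 0.02. At 0.1 mg/kg edgeR and DESeq2 called 0 members, beside 0.0154% of all genes in edgeR. At an unadjusted p under 0.05, 5 members were higher, beside 4.10% of all genes, with a median of 0.34 beside a median of all genes of -0.00. In the order 0.1, 1 and 6 mg/kg the log2 fold changes were 0.82, 1.05 and 2.15 for Ifit1, 0.58, 1.29 and 1.46 for Isg15, 0.16, 0.39 and 1.09 for Irf7, and 0.52, 0.98 and 1.64 for Xaf1. Oas2, Mx1 and Stat2 had their smallest values at 1 mg/kg, with 1.19, 0.27 and 1.90 for Oas2, 0.88, 0.40 and 2.26 for Mx1, and 0.40, 0.08 and 0.78 for Stat2. Set against the 0.1 mg/kg libraries in place of vehicle, the 6 mg/kg libraries gave 0 called members, beside 0.0386% of all genes, 18 at an unadjusted p under 0.05, beside 12.8% of all genes, and a median of 0.41.

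The members moved together across the 20 liver libraries. Over their 741 pairs the median Pearson r of log2 CPM was 0.37 and 84.5% of pairs were positive, beside a median of 0.00 between members and other genes. With the dose group means removed the median was 0.19. The values share libraries and depth, and the first median also holds the dose groups. Stat2 and Oas2 were the closest pair in this respect (r = 0.94, and 0.93 within dose groups), and Ifit1 and Xaf1 had r = 0.89. Against the rest stood Ifi27, with a median r of -0.32 to the other members, and Lgals3bp, with -0.06 overall and -0.78 to Stat2. The genes outside the list with the highest r to the mean standardised level of the members were Trafd1, a negative regulator of innate signalling (r = 0.85), Lipe, hormone-sensitive lipase (0.83), Cd274, which encodes PD-L1 (0.83), Oas1c (0.81), Pml (0.81) and the RNA editing enzyme gene Adar (0.81). These values hold the dose difference for which the members were chosen, and with the dose group means removed they were 0.60, 0.60, 0.61, 0.67, 0.44 and 0.50 in the same order.

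**Figure D3:**
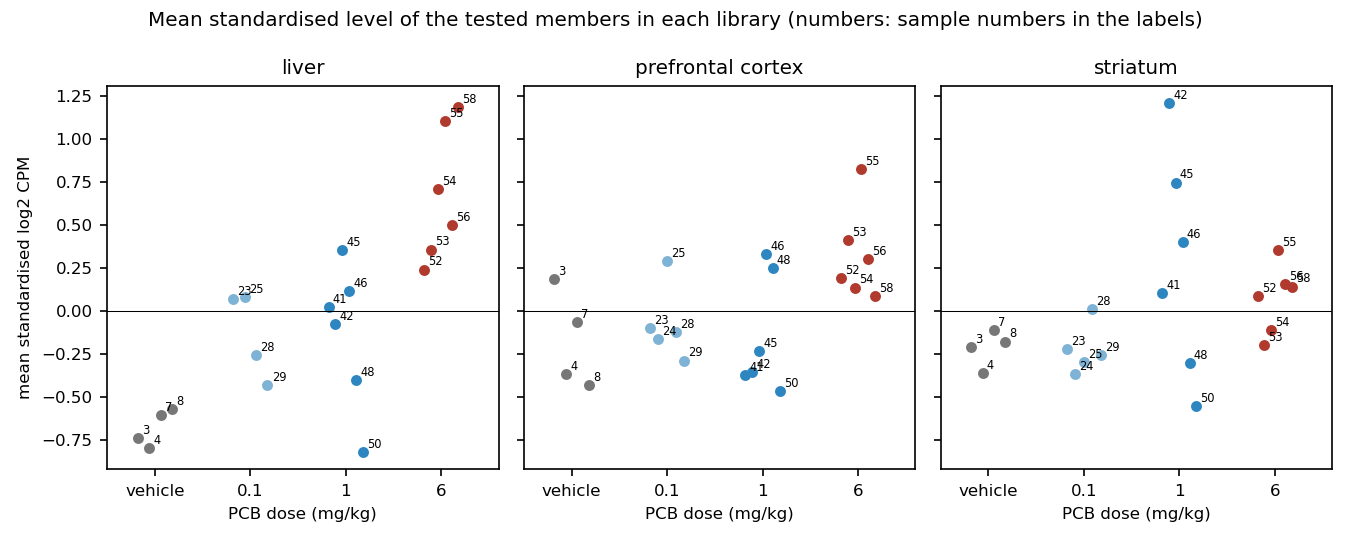
Mean standardised log2 CPM of the tested members in each library, by PCB dose in mg/kg, in 3 panels for liver, prefrontal cortex and striatum, with each point 1 library and its sample number beside it. Levels were standardised within a tissue and are not comparable between panels. In liver the vehicle libraries sit between -0.80 and -0.57 and the 6 mg/kg libraries between 0.24 and 1.18, with libraries 55 and 58 highest.

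Each library's mean standardised level of the members summarises this. In liver it was -0.80 to -0.57 in vehicle, -0.43 to 0.08 at 0.1 mg/kg, -0.82 to 0.35 at 1 mg/kg and 0.24 to 1.18 at 6 mg/kg. The top dose lay above vehicle and the 1 mg/kg libraries spread from the level of vehicle to that of the top dose. At 6 mg/kg the libraries numbered 55 had 1.10 in liver, 0.82 in prefrontal cortex and 0.35 in striatum, the highest of the dose group in both brain regions. Those numbered 58 had 1.18 in liver, the highest there, 0.08 in prefrontal cortex, the lowest of the dose group, and 0.14 in striatum. The labels do not say that a shared number is the same mouse. In striatum the highest libraries of all were 42 and 45 at 1 mg/kg, with 1.204 and 0.74, followed by 46 with 0.40. These 3 libraries also had the lowest GC slopes of the tissue (-0.57, -0.47 and -0.45), and the part of the GC slope in their levels was not tested.

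Other genes of the pathway came from a list of 94 genes outside the members, drawn up by role with earlier results known. Of these, 67 were tested in liver and 5 were higher at 6 mg/kg, beside the 2.8% of all genes called, and none was lower. The 5 were Socs3, the feedback inhibitor of JAK kinases (5.26 ± 2.34 to 16.6 ± 7.58 CPM, log2 fold change 1.66), Uba7, the E1 enzyme of ISG15 (17.0 ± 3.87 to 38.998 ± 13.2 CPM, 1.198), Phf11d (1.15), Adar (0.99) and Pml, the nuclear body scaffold (0.79), with adjusted p of 0.0134, 0.0134, 0.0481, 0.0237 and 0.0233. The median log2 fold change was 0.28, and at an unadjusted p under 0.05, 20 were higher and 1, Ifitm1, was lower (-0.95, adjusted p = 0.0656), beside 24.2% of all genes. The receptor genes Ifnar1 (0.14) and Ifnar2 (-0.00) and the transcription factor gene Irf1 (0.55, adjusted p = 0.0852) did not pass, and no type I interferon gene was tested. Of 13 tested targets typical of interferon gamma, Cd274 (1.76, adjusted p = 0.0197) and Gbp3 (0.92, adjusted p = 0.0452) were called, with a median of 0.37. These calls too rested on single libraries: without vehicle library 3 or without vehicle library 4 none of either list was called, and with single libraries left out the counts ran from 0 to 11 (without 6 mg/kg library 55, beside 7.91% of all genes) and from 0 to 3 (without 56, beside 10.1%). No gene of either list was called in a brain region at any dose, beside 0% of all genes there.

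In prefrontal cortex at 6 mg/kg edgeR and DESeq2 called 0 of the 30 tested members, beside 0% of all 14838 genes in edgeR. At an unadjusted p under 0.05, 5 were higher (Oasl2, Rtp4, Irf7, Xaf1 and Trim30a) and none was lower, beside 9.27% of all genes. The median log2 fold change was 0.19, beside 0.00, and 23 of 30 were above 0, beside 51.1% of all genes. Rtp4, a receptor chaperone gene, was at 1.73, 1.05, 1.62 and 1.03 CPM in vehicle and between 1.68 and 3.84 CPM (median 2.18) at 6 mg/kg (log2 fold change 0.81, adjusted p = 0.488). Oasl2 was at 2.16, 1.79, 2.59 and 0.799 CPM in vehicle and between 2.24 and 4.42 CPM (median 3.10) at 6 mg/kg (0.79, adjusted p = 0.411). Both overlapped vehicle, with most 6 mg/kg libraries above it. Irf7 was at 2.77, 1.16, 2.16 and 1.14 CPM in vehicle, between 0.888 and 3.88 CPM at 0.1 mg/kg, between 1.21 and 2.92 CPM at 1 mg/kg and between 2.19 and 3.94 CPM at 6 mg/kg, and the groups overlapped (0.76, adjusted p = 0.496). Trim30a, a TRIM protein gene, was at 0.605, 1.47, 1.08 and 1.48 CPM in vehicle and between 1.12 and 2.63 CPM at 6 mg/kg (0.69). Xaf1 was at 2.16, 1.998, 1.73 and 3.08 CPM and between 2.46 and 4.72 CPM (0.69), and Rsad2 at 0.865, 0.946, 1.30 and 1.14 CPM and between 1.15 and 2.06 CPM (0.65), again overlapping vehicle. These values rest on few reads, from 7 to 45 counts per library for the 6 genes in the vehicle and 6 mg/kg libraries.

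Stat2, Isg15 and Ifit1 did not share that pattern in prefrontal cortex. Stat2 was at 28.02, 25.7, 29.9 and 24.4 CPM in vehicle and between 22.0 and 25.3 CPM at 6 mg/kg (log2 fold change -0.19, adjusted p = 0.601). Isg15 was at 1.47, 0.946, 1.73 and 2.05 CPM in vehicle and between 0.924 and 3.001 CPM at 6 mg/kg (0.11), a direction that turned to -0.16 without 6 mg/kg library 55. Ifit1 was at 2.16, 1.79, 2.27 and 1.83 CPM in vehicle and between 1.23 and 4.22 CPM at 6 mg/kg (0.32). At 1 mg/kg edgeR and DESeq2 called 0 members, beside 0% of all genes, with 1 higher (Ifi27) and 1 lower (Stat2) at an unadjusted p under 0.05, beside 8.29% of all genes, and a median of 0.03. At 0.1 mg/kg they called 0 members, beside 0% of all genes, with Cmpk2 and Ddx58 lower at an unadjusted p under 0.05, beside 6.43% of all genes, and a median of 0.11. Neither count stands out from its share of all genes.

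**Figure D4:**
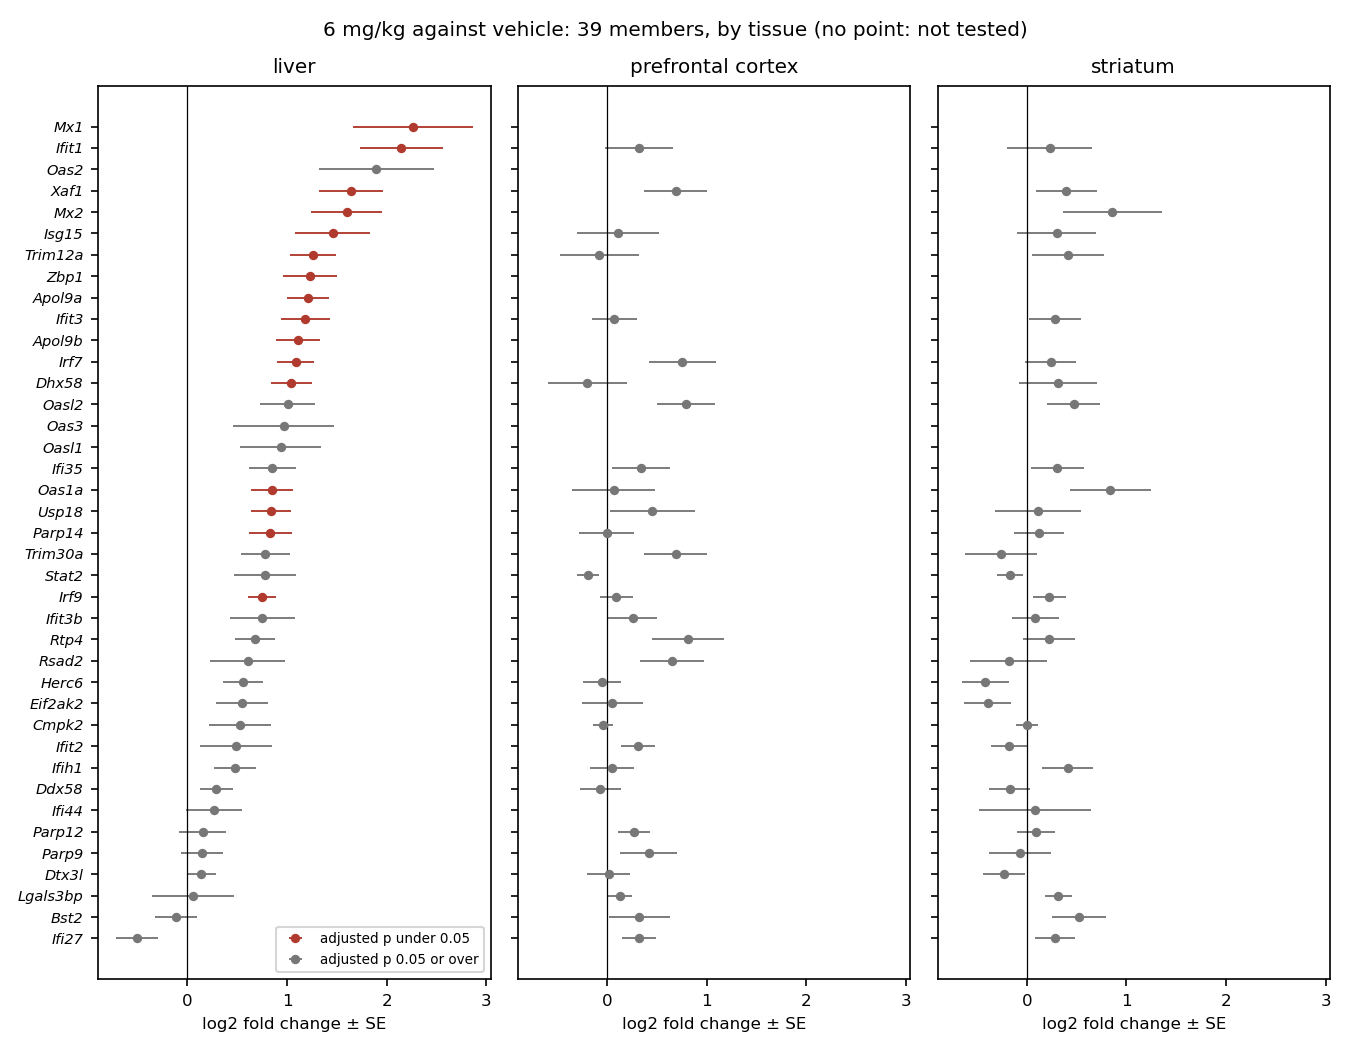
Log2 fold change ± SE of each member at 6 mg/kg against vehicle in liver, prefrontal cortex and striatum, ordered by the value in liver, with red points for genes called at an adjusted p under 0.05 and no point where a gene was not tested. The called points are all in liver, 16 of 39, and the medians were 0.83, 0.19 and 0.23.

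In striatum at 6 mg/kg edgeR and DESeq2 called 0 of the 32 tested members, beside 0% of all 15118 genes in edgeR. At an unadjusted p under 0.05 only Lgals3bp was higher, beside 15.7% of all genes. The median log2 fold change was 0.23, beside 0.01, with 23 of 32 above 0, beside 51.7% of all genes. Lgals3bp was at 25.6, 23.1, 25.2 and 20.1 CPM in vehicle and between 27.2 and 32.5 CPM at 6 mg/kg. Its groups did not overlap, as for no other of the 32 members, and the log2 fold change was 0.32 ± 0.13 (adjusted p = 0.260). The share of all genes without overlap was not counted in striatum. Oas1a was at 0.997, 0.395, 0.289 and 1.34 CPM in vehicle and between 0.548 and 1.90 CPM at 6 mg/kg (0.84), and Bst2 at 4.79, 4.25, 2.70 and 2.77 CPM and between 3.47 and 6.58 CPM (0.53). Both overlapped. Herc6 was at 5.48, 4.05, 5.11 and 4.40 CPM in vehicle and between 2.80 and 4.61 CPM at 6 mg/kg (-0.41). Oasl2 had 0.47, Trim12a and Ifih1 0.41, Isg15 0.30, Irf7 0.24, Ifit1 0.23 and Stat2 -0.17, all with an adjusted p above 0.05, and the direction of Ifit1 was 0.23 as reported and -0.01 without 6 mg/kg library 55. At 1 mg/kg edgeR and DESeq2 called 0 members, beside 0% of all genes, with Ifih1 and Xaf1 higher at an unadjusted p under 0.05, beside 7.36% of all genes, and a median of 0.24. At 0.1 mg/kg they called 0 members, beside 0% of all genes, with Ifi44 lower at an unadjusted p under 0.05, beside 2.53% of all genes, and a median of 0.01. Library measures and some cell type markers differed at the top dose in striatum. Library totals were 10.15 to 10.46 M counts in vehicle and 8.55 to 9.20 M at 6 mg/kg, without overlap. The GC slope was -0.41 to 0.39 in vehicle and 0.29 to 0.43 at 6 mg/kg. General neuron markers summed to 3948 to 5042 CPM in vehicle and 3089 to 3861 CPM at 6 mg/kg, without overlap. Striatal neuron markers (Drd1, Drd2, Ppp1r1b, Adora2a and Penk) had the opposite direction in their medians and overlapped. They summed to 2113 to 4643 CPM (median 2974) in vehicle and 2660 to 4720 CPM (median 3785) at 6 mg/kg. Oligodendrocyte markers summed to 4165 to 6293 CPM and 6260 to 8786 CPM. Choroid plexus markers summed to 35.9 to 690 CPM in vehicle and 28.4 to 2598 CPM at 6 mg/kg. The part of these library measures and cell types in the values of Lgals3bp and the other members was not tested.

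Whether the 6 mg/kg change differed between tissues was tested as an interaction. Between liver and prefrontal cortex edgeR called 0 of 38 tested members, beside 0.899% of all genes. At an unadjusted p under 0.05, 11 members differed, 10 of them with the larger value in liver, beside 19.97% of all genes. The smallest adjusted p was 0.0756, for Ifit1, whose log2 fold changes differed by 1.81 ± 0.50. DESeq2 called 7 (Dhx58, Ifit1, Ifit3, Irf9, Isg15, Parp14 and Trim12a), beside 6.84% of all genes, and edgeR without 6 mg/kg library 55 called 5 (Ifit1, Ifit3, Isg15, Stat2 and Trim12a), beside 5.33% of all genes. Between liver and striatum edgeR called 0 of 39, beside 0.0277% of all genes, with 14 at an unadjusted p under 0.05, beside 14.3% of all genes, and DESeq2 called 2 (Herc6 and Ifit1), beside 0.907% of all genes. The differences of Xaf1, Ifit1 and Irf7 were 1.22 ± 0.33, 1.90 ± 0.54 and 0.83 ± 0.29, with adjusted p of 0.179, 0.182 and 0.257. Between striatum and prefrontal cortex edgeR and DESeq2 called 0 of 32, beside 0% of all genes, and no member reached an unadjusted p under 0.05 in edgeR. With all libraries in the edgeR fit, a change called in liver and not in a brain region is thus not shown to differ between them for any member.

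The basal level of these genes in vehicle mice was compared between tissues on libraries scaled together, over 14161 genes that passed the filter on these libraries together. Of all these genes 84.9% were called between liver and prefrontal cortex, 84.8% between liver and striatum and 13.5% between striatum and prefrontal cortex. Of the 37 members among them, Oas2, Oasl1, Mx2, Zbp1, Apol9a, Apol9b and Ifi44 did not pass the filter within every tissue and are left out of the counts, since a gene can enter through liver alone. Of the other 30, 27 were higher in liver than in prefrontal cortex and 1 was lower, beside 83.1% of the 11816 genes that passed in each tissue and 43.1% called higher. The median log2 difference was 2.96, beside 0.10 over those genes. Against striatum 27 were again higher and 1 lower, beside 82.9% of those genes called, with a median of 3.25 beside 0.08. The sizes depend on the scaling across tissues: with library totals alone in place of TMM, the median of those genes moved to -0.50 against prefrontal cortex and -0.61 against striatum. The members' medians then were 2.36 and 2.55, with 26 higher and 2 lower in both. Beside these, 83.6% and 83.8% of the genes that passed in each tissue were called, and 31.1% and 29% were called higher. Irf7 was at 92.1 ± 5.22 CPM in liver, 1.60 ± 0.705 CPM in prefrontal cortex and 2.49 ± 0.460 CPM in striatum (SD, n = 4 each), a 55.7-fold and 36.8-fold higher level in liver (edgeR adjusted p = 6.87e-14 and 1.26e-13), or 36.96-fold and 22.99-fold with library totals alone. Irf7 was not called between the brain regions (adjusted p = 0.138). Stat2 was at 151 ± 37.2, 23.96 ± 2.18 and 17.1 ± 1.57 CPM in the same order, 6.29-fold and 8.83-fold higher in liver (edgeR adjusted p = 5.39e-11 and 7.77e-12), or 4.10-fold and 5.43-fold with library totals alone. Bst2 was at 470 ± 31.3, 2.64 ± 0.620 and 3.04 ± 0.889 CPM, 177-fold and 155-fold higher in liver (edgeR adjusted p = 5.49e-15 and 6.28e-15), or 116-fold and 96.3-fold with library totals alone.

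Cmpk2 was the exception among the 28 called members. It stood at 7.76 ± 1.97 CPM in liver, 24.3 ± 0.970 CPM in prefrontal cortex and 29.5 ± 2.69 CPM in striatum, so the level in liver was lower by 1.64 and 1.91 on the log2 scale (edgeR adjusted p = 3.44e-08 and 3.91e-09). Its neighbour Rsad2, next to it on chromosome 12, went the other way, with 5.30 ± 2.33 CPM in liver and 0.942 ± 0.174 CPM in prefrontal cortex. Ifit2 (-0.53, adjusted p = 0.0804) and Herc6 (0.34, adjusted p = 0.161) were not called between liver and prefrontal cortex. With library totals alone Ifit2 was lower in liver (-1.13, edgeR adjusted p = 0.000856), and the direction of Herc6 turned (-0.27, adjusted p = 0.257). Apol9a, at 84.9 ± 17.4 CPM in liver, had 0 to 3 counts in the vehicle libraries of prefrontal cortex and 0 or 1 count in those of striatum, and Zbp1 had 0 to 3 and 0 to 2 counts, so no ratio is given for them. Between striatum and prefrontal cortex 3 of the 30 members were called, beside 12.1% of the genes that passed in each tissue. Lgals3bp was higher in striatum (19.7 ± 2.18 against 11.5 ± 0.948 CPM, adjusted p = 0.00472), and Herc6 (3.98 ± 0.544 against 10.5 ± 3.70 CPM, adjusted p = 0.000807) and Ifih1 (2.52 ± 0.742 against 4.58 ± 1.26 CPM, adjusted p = 0.0305) were lower there. The vehicle libraries of the 3 tissues carry the same sample numbers, and a fit with these as a block called 28, 28 and 3 of the 30 members, as without it.

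**Figure D5:**
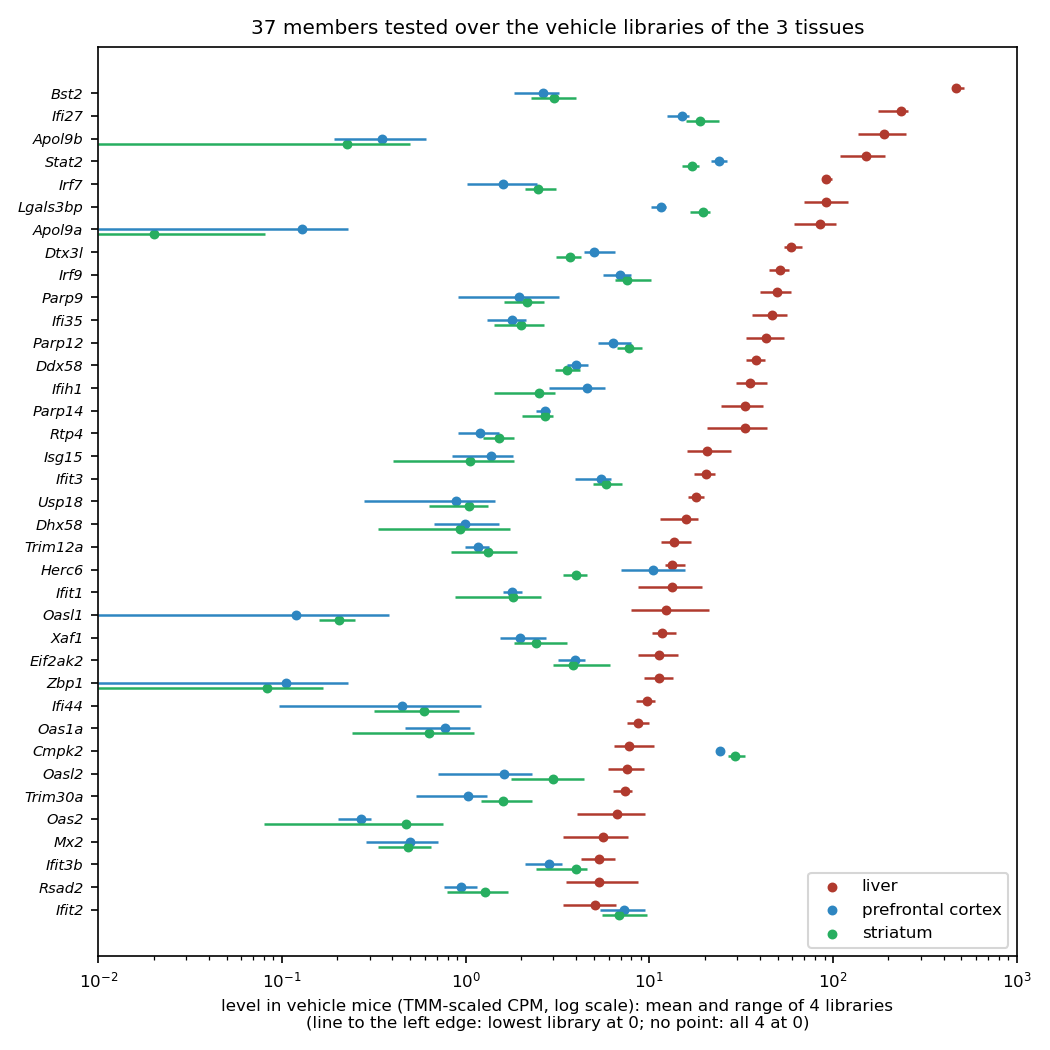
Level of the 37 members tested over the vehicle libraries of the 3 tissues, in CPM after TMM scaling across tissues on a log axis, with points for the mean and lines for the range of 4 libraries per tissue. Of the 30 members that passed the filter in each tissue 27 were called higher in liver than in prefrontal cortex and 27 than in striatum; Oas2, Oasl1, Mx2, Zbp1, Apol9a, Apol9b and Ifi44 did not pass in each and their place is not read. Cmpk2 was at 7.76 CPM in liver against 24.3 and 29.5 CPM, and lines that reach the left edge mark members with a library at 0.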

How the data were processed

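RNA-seq was run on liver, prefrontal cortex and striatum of female mice. The authors deposited 1 table of raw counts per gene and tissue, and the submitters' processing notes name FastQC, HISAT2 and the build mm10; the read counter and any strand setting are not given in the sources used here. Genes were named from Entrez identifiers (99.95 to 99.97% matched). Each tissue was fitted whole in edgeR 4.0.16 (R 4.3.3; filterByExpr, TMM, quasi-likelihood test over all dose groups, Benjamini-Hochberg adjustment); DESeq2 1.42.0, other scaling, no filter, the dose group and vehicle alone, and libraries left out were alternatives. Vehicle tissues and tissue-by-dose interactions were fitted over genes shared by the tables. The 39 members and the gene lists were chosen with earlier results of these data known. Members printed by library were the 6 with the largest change per tissue at a mean of at least 1 CPM, plus Irf7, Stat2, Isg15 and Ifit1; Lgals3bp in striatum was added after its values were seen. On simulated liver counts the test recovered 49% of genes changed 2-fold and 90% of those changed 4-fold, with 4.14% false calls. No per-sample column was left unmapped (0). No pair of replicate libraries agreed within sampling noise (smallest chi-square per degree of freedom 2.94). Promoter windows were RefSeq's. Figures used matplotlib 3.10.9.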

Additional observations from a re-analysis of the deposited data

Results flagged for a closer look

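In liver at 6 mg/kg the Xaf1 level of library 58 was 34.4 CPM and stood apart from the other 5 libraries, which lay between 15.2 and 21.6 CPM. In striatum at 1 mg/kg the Irf7 level of library 45 was 4.66 CPM, apart from 2.12 to 2.85 CPM in the others. These were 2 of 120 groups of 4 to 6 libraries examined for the highest or lowest library, where chance alone sets apart about 1 group in 20. No member (0) moved one way in every library of a tissue and the other way in every library of another.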

How the results depend on the processing

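The number of members called in liver at 6 mg/kg (16) depended on the setting, and under none of those run was a member called lower. It was 3 with the 6 mg/kg and vehicle libraries alone, and ranged from 0 to 21 with single libraries left out, at 0 without vehicle library 4 (0.0228% of all genes called) and at 21 without 6 mg/kg library 56 (10.1%). With alternatives chosen after seeing the data it was 0 with the GC slope as a covariate, 0 with the clock index as a covariate and 0 with the 0.1 mg/kg libraries as the reference, and 15 with an offset for GC content and length (0.871% of all genes). For the liver–prefrontal cortex interaction DESeq2 called 7 and leaving out single libraries gave 0 to 5, the 5 without 6 mg/kg library 55, and for liver–striatum DESeq2 called 2, against 0 in edgeR. The cause of these changes was not tested. All other counts of members called in either direction kept to within 1.5 times their value, in 182 comparisons with an alternative; by direction, 1 member was lower in liver than in brain with TMM and 2 with library totals. Of the comparisons of single genes 353 kept direction and side of the threshold, 48 fell short of it, 3 (all of Oas2) passed, and 5 turned. For Isg15 in prefrontal cortex the log2 fold change ranged from -0.16 (without 6 mg/kg library 55) to 0.27 (without vehicle library 8), with -0.03 without 6 mg/kg library 54 and -0.06 without vehicle library 4. For Ifit1 in striatum it ranged from -0.015 (without 6 mg/kg library 55) to 0.45 (without vehicle library 8), with -0.00075 without vehicle library 3.

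Sample numbers recur across tissues, so the fits over tissues were repeated with a replicate block. It called 35, 3 and 35 members for liver against prefrontal cortex, striatum against prefrontal cortex and liver against striatum, and 0 members in each interaction, as without the block; library totals in place of TMM, an alternative chosen after seeing the data, also gave 35, 3 and 35. These counts are over 37 members, 7 of which did not pass the filter in each tissue; over the other 30 they were 28, 3 and 28 in all 3 fits, beside 82.6%, 10.6% and 82.3% of genes with the block. Libraries with the same number had mean correlations of their deviations of 0.006 (liver and prefrontal cortex), 0.005 (liver and striatum) and 0.113 (striatum and prefrontal cortex), over 0.1 in 2 of 20, 2 of 20 and 12 of 21 pairs. As not every pair was over 0.1, the numbers were not taken to pair the libraries. No paired analysis was possible within a tissue because the dose groups share no sample numbers. Low counts limit the values of some members in brain: over 21 libraries Zbp1 had 24 counts in prefrontal cortex and 25 in striatum.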
